A study of Mus musculus with 10 samples.

Results

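Collagens are the triple-helical proteins of the extracellular matrix, and the genes that encode their chains were examined here in mouse kidney tumours treated with an RNA that activates innate immune sensing. Every row of the deposited count table whose symbol has the form Col, a number, the letter a and a number was taken, which gave 36 of the 18603 genes in the table. The levels and responses of the fibrillar, basement membrane and other collagen types were then set side by side. Names of collagen classes follow textbook use, and 8 further chains of those classes (Col2a1, Col4a6, Col9a1, Col9a2, Col10a1, Col19a1, Col22a1 and Col28a1) were not analysed here.

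The 10 tumours were grown from RENCA, a mouse kidney cancer cell line of Balb/c origin, injected under the skin of female Balb/c mice. The SLR14 group (5 mice) received, into the tumour, lipid nanoparticles that carried SLR14, an RNA bearing a 5′ triphosphate that is a ligand of the cytosolic sensor RIG-I, in 50 µL of PBS. The PBS group (5 mice) received the vehicle PBS by the same route. Treatment began at 100 to 150 mm3, both groups had 3 injections 48 h apart, and tumours were harvested 24 h after the last. All values therefore compare the RNA and its lipid carrier together with PBS. RENCA is a single line and its host is also a mouse, so collagen transcripts of tumour cells and of host stroma cannot be told apart. In whole tumours, fewer cells of a type and less RNA per cell cannot be told apart either.

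Each collagen chain is made as a precursor that folds with partner chains into a triple helix, after proline and lysine residues have been hydroxylated. Fibrillar collagens (types I, II, III, V, XI, XXIV and XXVII) assemble into banded fibrils that give interstitial tissue its strength. Type IV forms the sheet-like network of basement membranes under epithelium and around vessels, where the multiplexins XV and XVIII also lie. Type VI forms beaded filaments, and the fibril-associated collagens with interrupted triple helices (FACITs) decorate the surface of fibrils. Fibroblasts, pericytes and myofibroblasts make most interstitial collagen in solid tumours, and epithelial and endothelial cells also make type IV.

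Libraries held 17931895 to 39842608 counts. Tumours are called by group and number, such as PBS 5. The epithelial keratin Krt8 was at 1389 to 1759 CPM in SLR14 tumours, against 1180 to 1655 CPM in PBS tumours, and the 8 kidney epithelial markers listed were all in the table. CPM here means read counts per 1000000 counts, scaled by the trimmed mean of M-values, and CPM per kb divides this by transcript length so that genes can be compared. 3 tumours stood apart. PBS 5 was the lowest PBS tumour for 22 of the 33 collagens tested, against 34.0% of all genes (it was the highest PBS tumour for 34.7%), and SLR14 2 was the lowest SLR14 tumour for 18 of 33, against 25.0% of all genes. PBS 4 was the highest PBS tumour for 19 of 33, against 18.7% of all genes. Values without 1 of these tumours are given where they move a result most.

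The upstream windows of 4 genes are shown because these genes represent the contrasting patterns described below. Col3a1 and Col8a1 were low in SLR14 2, whereas Col5a1 and Col6a3 were low in PBS 5. The contrast was partial. Col3a1 was also at 61.0% of the median of the other PBS tumours in PBS 5, and Col6a3 at 76.0% of the median of the other SLR14 tumours in SLR14 2. A link between the windows and these patterns was not tested. Each sequence is the 250 bases before the annotated start in RefSeq, GRCm38.p6, 5′ to 3′ on the strand of the gene. Capitals mark exact matches on either strand to TATAAA or GGGCGG.
Col3a1 (chr1:45311288-45311537, plus strand): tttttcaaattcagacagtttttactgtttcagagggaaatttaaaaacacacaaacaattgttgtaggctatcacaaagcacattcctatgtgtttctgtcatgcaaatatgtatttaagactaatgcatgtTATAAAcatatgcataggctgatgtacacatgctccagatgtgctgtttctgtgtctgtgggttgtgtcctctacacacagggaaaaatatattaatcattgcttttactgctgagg
Col8a1 (chr16:57754738-57754987, minus strand): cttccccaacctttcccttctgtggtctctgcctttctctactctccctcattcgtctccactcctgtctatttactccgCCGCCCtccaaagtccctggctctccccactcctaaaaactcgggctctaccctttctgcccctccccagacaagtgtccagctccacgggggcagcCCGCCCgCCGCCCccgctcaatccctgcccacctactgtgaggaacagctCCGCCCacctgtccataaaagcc
Col5a1 (chr2:27886175-27886424, plus strand): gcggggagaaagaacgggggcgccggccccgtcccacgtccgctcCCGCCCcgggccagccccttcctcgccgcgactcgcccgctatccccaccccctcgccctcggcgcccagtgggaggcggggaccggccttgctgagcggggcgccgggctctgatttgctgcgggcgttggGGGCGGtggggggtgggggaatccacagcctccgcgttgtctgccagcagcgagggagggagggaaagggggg
Col6a3 (chr1:90843972-90844221, minus strand): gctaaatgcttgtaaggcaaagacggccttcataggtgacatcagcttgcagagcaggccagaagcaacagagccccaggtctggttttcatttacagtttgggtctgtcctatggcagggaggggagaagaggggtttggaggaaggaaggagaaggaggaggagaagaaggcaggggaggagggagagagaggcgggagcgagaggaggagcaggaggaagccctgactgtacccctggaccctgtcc

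The 4 windows differed in base composition. That of Col3a1 was 35.2% G and C and held 1 TATAAA and no GGGCGG. Col8a1 had 60.8% G and C with 4 matches to GGGCGG, Col5a1 had 76.4% with 2, and Col6a3 had 57.2% with neither motif. None of the 4 held CCAAT. A RefSeq window was found for 29 of the 36 collagen genes, 31 windows in all. TATAAA occurred in 4 of the 31, against 12.4% of 32851 mouse windows, CCAAT in 12 of 31, against 33.8% of all, and GGGCGG in 20 of 31, against 32.7% of all. Both strands were searched, overlapping matches were counted, none of the 3 motifs holds another, and a match is a description of the letters only.

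Collagen transcripts together made up 0.399% to 0.524% of CPM in the SLR14 tumours, against 0.268% to 0.802% in the PBS tumours. The level per length was highest for Col18a1, the multiplexin whose C-terminal fragment is endostatin, at 206 CPM per kb over all tumours. The type I chain Col1a1 followed at 121 CPM per kb, then the type IV chain Col4a1 at 88.5, Col1a2 at 82.2, the type III chain Col3a1 at 56.1 and Col4a2 at 51.1 CPM per kb. Col5a1 (45.4), Col16a1 (38.2), Col12a1 (38.1) and Col6a1 (36.6 CPM per kb) completed the 10 most abundant. The order of the means differed between groups, although the 2 pairs given next overlapped within their SD in both groups. Col1a2 was at 59.4 ± 25.1 CPM per kb in SLR14 tumours and 105 ± 57.7 in PBS tumours, against Col4a1 at 79.1 ± 10 in SLR14 tumours and 97.9 ± 32.8 in PBS tumours (SD, n = 5 each). Col3a1 was at 39.0 ± 16.1 in SLR14 tumours and 73.3 ± 36.7 in PBS tumours, against Col4a2 at 50.2 ± 7.86 in SLR14 tumours and 51.9 ± 19.3 in PBS tumours (SD, n = 5 each). Within the SLR14 group the levels were 216 ± 13.0 CPM per kb for Col18a1 and 99.2 ± 33.6 for Col1a1, and within the PBS group 196 ± 40.8 and 144 ± 89.8 CPM per kb (SD, n = 5 each), so these neighbours overlap within their spread in PBS. Of the 36 genes, 20 had a mean of at least 10 CPM.

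**Figure D1:**
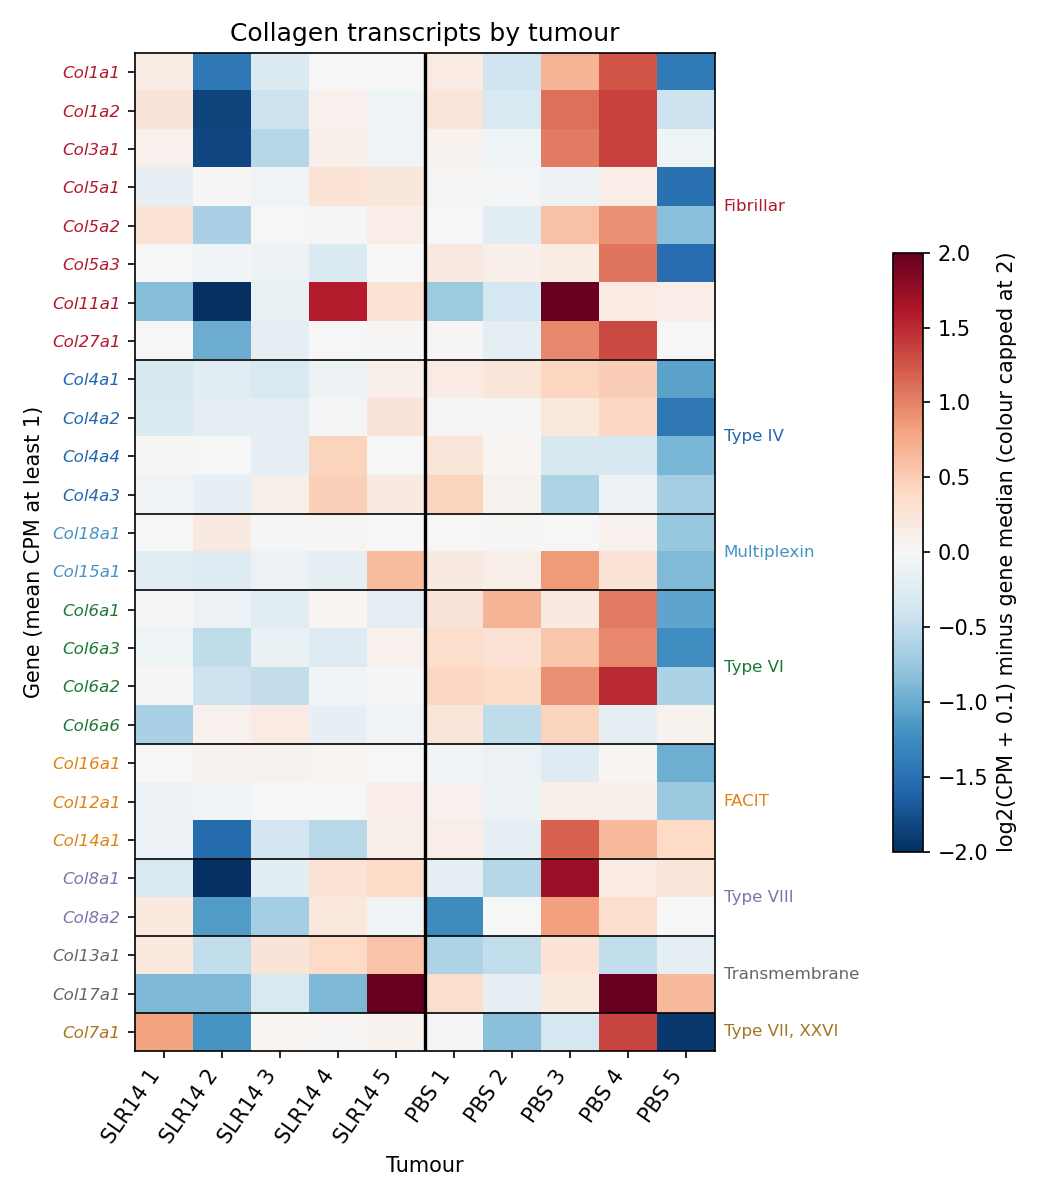
Collagen genes with a mean of at least 1 CPM (rows, grouped by class) in each tumour (columns, SLR14 left of PBS). Colour gives log2(CPM + 0.1) minus the gene's median over the 10 tumours, capped at 2. PBS 5 is blue for most type IV, V and VI chains, and SLR14 2 is blue for Col1a1, Col1a2, Col3a1, Col14a1 and Col8a1 but not for Col5a1, Col4a1 or Col18a1.

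The design holds a single contrast, SLR14 over PBS, which asks whether the RIG-I ligand in its carrier changed transcript levels. No collagen gene passed the test. Of the 33 collagens with enough counts, 0 had an edgeR quasi-likelihood adjusted p under 0.05, where 0.963% of all 15883 genes did. DESeq2 also called 0 of 35, with 2.19% of all genes called, and limma voom 0 of 33, with 0.913% called. At an unadjusted p under 0.05, edgeR counted 6 of 33 collagens, against 10.8% of all genes, DESeq2 8 of 35, against 10.9%, and limma voom 5 of 33, against 10.6%. In edgeR these 6 were Col3a1, Col6a2, Col6a5, Col14a1 and Col27a1 with negative fold changes, and Col13a1 with a positive one.

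The fitted log2 fold change was negative for 22 of the 33 collagens, against 52.0% of all genes. Its median was -0.29 over the collagens and -0.01 over all genes tested. For 14 of the 33 the 95% confidence interval lay wholly between -1 and 1 on the log2 scale, and for 19 it reached beyond a 2-fold change in at least 1 direction. None of the 33 had groups that did not overlap in CPM, where 1.32% of all genes were lower and 1.92% higher in SLR14 without overlap. The coefficient of variation was larger among PBS tumours than among SLR14 tumours for 31 of the 33. The matching share over all genes was not computed, so this count is not shown to be particular to collagens. Over all genes, PBS 5 was the lowest PBS tumour for 34.0% and the highest for 34.7%.

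**Figure D2:**
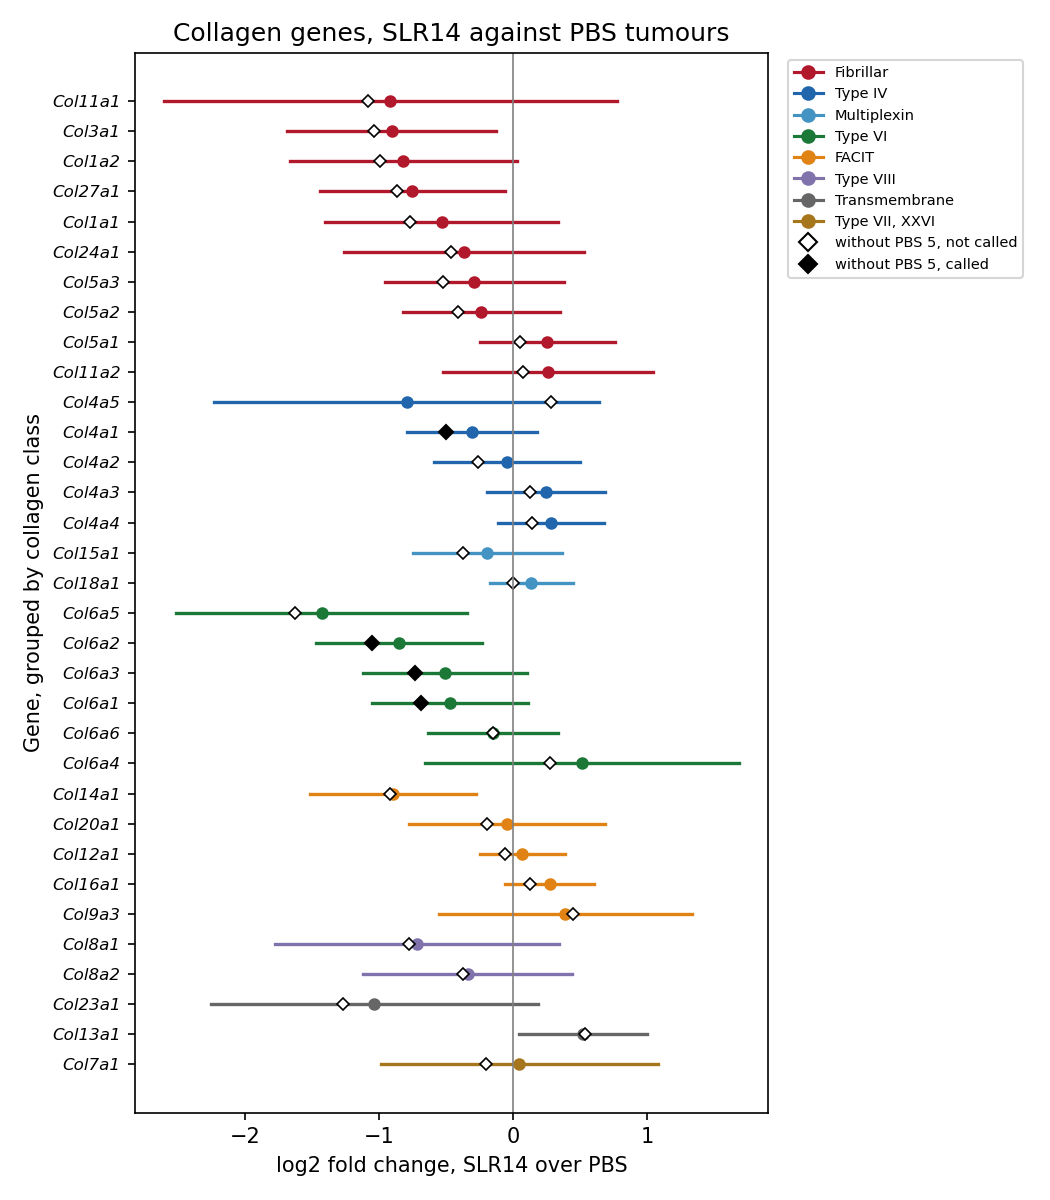
Log2 fold change of each tested collagen, SLR14 over PBS (circles, with 95% confidence intervals from edgeR), grouped by class. Diamonds give the same value without PBS 5 and are filled where the adjusted p is then under 0.05, which holds for Col4a1, Col6a1, Col6a2 and Col6a3.

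Fibrillar collagens had a median log2 fold change of -0.45 over 10 tested genes, 8 of them negative, and 0 of 10 were called. Their summed level was 1977, 926, 1520, 1963 and 1876 CPM in SLR14 1 to 5, against 2020, 1575, 3000, 3955 and 992 CPM in PBS 1 to 5. SLR14 2 and PBS 5 lay near each other at the bottom, and PBS 1, PBS 3 and PBS 4 lay above every SLR14 tumour. Without PBS 4 the fibrillar median was -0.08, and without PBS 5 it was -0.65.

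The type I chains form a heterotrimer that is the main protein of tendon, bone and dermis. Col1a1 was at 758, 254, 565, 682 and 682 CPM in SLR14 1 to 5, against 762, 518, 1098, 1626 and 256 CPM in PBS 1 to 5. PBS 1, PBS 3 and PBS 4 lay above every SLR14 tumour, and PBS 2 and PBS 5 lay within the SLR14 range. The log2 fold change was -0.53 ± 0.40 (SE, edgeR adjusted p = 0.639). For Col1a1 it was -0.16 without PBS 4, -0.77 without PBS 5 and -0.35 without SLR14 2. Col1a2 was at 449, 104, 283, 399.9 and 353 CPM in SLR14 1 to 5, against 446, 305, 809.9, 965 and 283 CPM in PBS 1 to 5. PBS 3 and PBS 4 alone exceeded the SLR14 range, and the log2 fold change was -0.82 ± 0.39 (SE, edgeR adjusted p = 0.474), against -0.54 for Col1a2 without PBS 4 and -0.60 without SLR14 2.

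Col3a1, the chain of type III fibrils that accompany type I in skin and vessel walls, was at 286, 76.2, 181, 287 and 255 CPM in SLR14 1 to 5. In PBS 1 to 5 it was at 283, 253, 552, 696 and 255 CPM. It had the smallest p of the class, with a log2 fold change of -0.91 ± 0.36 (SE, edgeR unadjusted p = 0.0256, adjusted p = 0.383). PBS 1, PBS 2 and PBS 5 lay within the SLR14 range, and the log2 fold change of Col3a1 was -0.63 without PBS 4 and -0.69 without SLR14 2.

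Type V chains nucleate fibrils and set their width. Col5a1 was at 352, 403, 377, 481 and 461 CPM in SLR14 1 to 5, against 404, 389, 368, 437 and 141 CPM in PBS 1 to 5. PBS 5 alone lay outside the range of the other tumours, and the log2 fold change of 0.26 was 0.05 without it. Col5a3 was at 46.0, 43.9, 42.4, 37.8 and 45.3 CPM in SLR14 1 to 5, against 51.7, 48.7, 50.5, 96.1 and 15.8 CPM in PBS 1 to 5. All SLR14 values thus lay between PBS 5 and the other PBS tumours, and the log2 fold change was -0.29 ± 0.31 (SE, edgeR adjusted p = 0.735), against -0.53 ± 0.18 (SE, adjusted p = 0.217) without PBS 5. Col5a2 had a log2 fold change of -0.24. Of the minor fibrillar chains, best known from cartilage or bone, Col27a1 was at 1.07 to 2.27 CPM in SLR14 tumours, against 1.94 to 5.69 CPM in PBS tumours, and its log2 fold change of -0.76 had an edgeR unadjusted p of 0.0344 and an adjusted p of 0.424. Col11a1, Col24a1 and Col11a2 stayed below 15 CPM in every tumour, with log2 fold changes of -0.92, -0.37 and 0.26 and confidence intervals that all crossed 0.

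Basement membrane collagens had medians nearer to 0. The 5 type IV chains tested had a median log2 fold change of -0.05, with 3 negative and 0 called, and 7 genes gave the same -0.05 when the multiplexins were counted with them. Summed type IV was 860.3, 916, 872, 1034 and 1149 CPM in SLR14 1 to 5, against 1137, 1152, 1275, 1372 and 469.6 CPM in PBS 1 to 5. PBS 5 was far below all others, and among the other PBS tumours PBS 1 alone lay below the highest SLR14 value. The median weighs every chain alike, whatever its level. Without PBS 5 it was 0.13, although the abundant chains Col4a1 and Col4a2 were then at -0.50 and -0.26. The log2 ratio of the group means of summed type IV was -0.16, and -0.36 to -0.06 with 1 tumour left out. For summed fibrillar collagens that ratio was -0.48.

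Col4a1 and Col4a2 form the heterotrimer found in nearly all basement membranes. Col4a1 was at 466, 506, 472, 545 and 628 CPM in SLR14 1 to 5, against 655, 689, 790.4, 824 and 280.0 CPM in PBS 1 to 5. Its log2 fold change was -0.31 ± 0.23 (SE, edgeR adjusted p = 0.630). Without PBS 5 the groups no longer overlapped and the value was -0.50 ± 0.10 (SE, edgeR adjusted p = 0.0345). Col4a2 was at 280.1, 299.6, 297, 336 and 407 CPM in SLR14 1 to 5, against 347, 348, 397, 456 and 127 CPM in PBS 1 to 5. Its log2 fold change was -0.05 ± 0.25 (SE, edgeR adjusted p = 0.953), and its groups overlapped with and without PBS 5. The starts of these 2 genes lie 21 bases apart on opposite strands in RefSeq, and no source at hand states whether counting used strand, so reads at that shared edge cannot be told apart.

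Col4a3, Col4a4 and Col4a5 make the network of the kidney's glomerular filter. Col4a4 was the most abundant of them, at 102, 99.6, 89.0, 136 and 100.1 CPM in SLR14 1 to 5, against 118, 102, 79.6, 80.2 and 52.8 CPM in PBS 1 to 5. The ranges overlapped and the log2 fold change was 0.28 ± 0.18 (SE, edgeR adjusted p = 0.601). Col4a3 lay between 10.9 and 17.3 CPM in SLR14 tumours, against 7.75 and 16.7 CPM in PBS tumours. Col4a5 was below 1 CPM in all tumours except PBS 5, where it reached 2.13 CPM, and its log2 fold change was -0.80 with PBS 5 and 0.28 without it.

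Multiplexins carry interrupted collagen domains with sugar chains. Col18a1 was at 1003, 1142, 995, 1023 and 999 CPM in SLR14 1 to 5, against 997, 1028, 1012, 1073 and 595 CPM in PBS 1 to 5. PBS 5 lay below a narrow band that held all other tumours, with a log2 fold change of 0.13 ± 0.14 (SE, edgeR adjusted p = 0.736) and an interval of -0.18 to 0.44. Col15a1, abundant around vessels and muscle fibres, was at 47.8, 46.2, 50.8, 48.5 and 85.8 CPM in SLR14 1 to 5, against 62.3, 60.0, 99.9, 67.1 and 30.0 CPM in PBS 1 to 5. The log2 fold change was -0.19 ± 0.26 (SE, edgeR adjusted p = 0.786).

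The ratio of summed fibrillar to summed type IV CPM was 2.30, 1.01, 1.74, 1.90 and 1.63 in SLR14 1 to 5, against 1.78, 1.37, 2.35, 2.88 and 2.11 in PBS 1 to 5. Its mean was 1.72 ± 0.468 in SLR14 tumours and 2.10 ± 0.574 in PBS tumours (SD, n = 5 each), so the difference was smaller than the spread within either group. The collagens that are neither fibrillar nor type IV, 18 tested, had a median log2 fold change of -0.17, between the other medians.

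**Figure D3:**
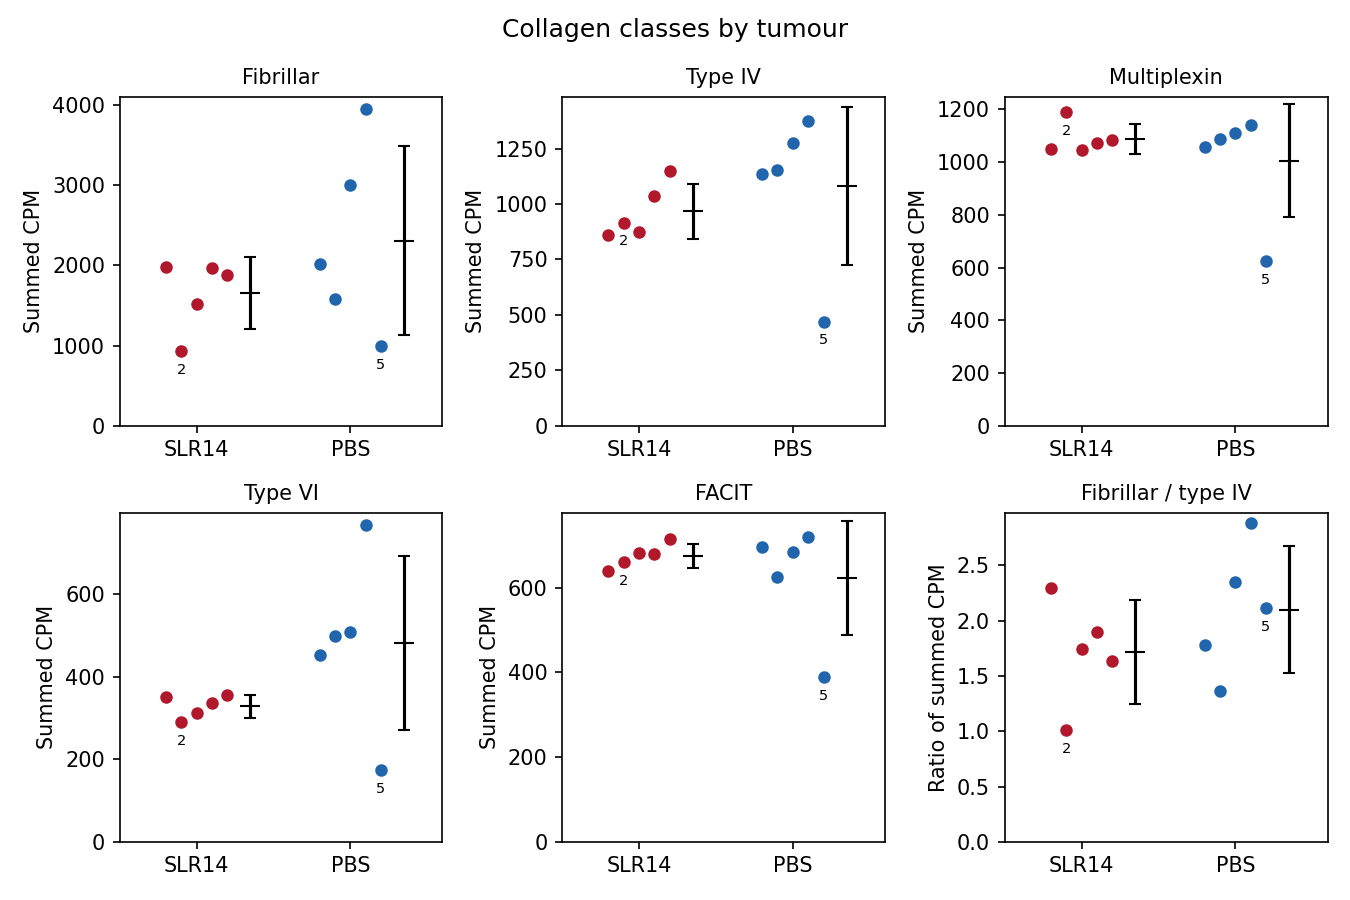
Summed CPM of 5 collagen classes and the fibrillar to type IV ratio in each tumour (dots, SLR14 left of PBS, with mean and SD beside them; tumours SLR14 2 and PBS 5 are numbered). Type VI is at 289.8 to 356 CPM in the SLR14 tumours and at 454 to 768 CPM in PBS 1 to 4, with PBS 5 at 175 CPM.

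Type VI forms filaments that link cells to the surrounding matrix. The 6 chains had a median log2 fold change of -0.49, with 5 negative and 0 called, and without PBS 4 the median was -0.27. Col6a1 was at 132, 125, 115, 138 and 119 CPM in SLR14 1 to 5, against 161, 217, 153, 277 and 64.9 CPM in PBS 1 to 5. Col6a2 was at 55.2, 40.8, 39.2, 52.3 and 53.9 CPM in SLR14 1 to 5, against 72.3, 70.4, 103, 154 and 35.2 CPM in PBS 1 to 5. Col6a3, the long chain of the trimer, was at 160.4, 119.9, 155, 142 and 180.3 CPM in SLR14 1 to 5, against 216, 208, 249, 332 and 71.6 CPM in PBS 1 to 5. In all 3 genes every SLR14 tumour lay below PBS 1 to 4 and above PBS 5.

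With all 10 tumours the log2 fold changes were -0.47 ± 0.27 for Col6a1, -0.85 ± 0.29 for Col6a2 and -0.51 ± 0.28 for Col6a3, with edgeR adjusted p of 0.549, 0.273 and 0.542 (SE). Without PBS 4 they were -0.24 for Col6a1, -0.54 for Col6a2 and -0.30 for Col6a3, and 0 of 33 collagens were called. The labels give no reason to leave out PBS 5. It was the lowest PBS tumour for 22 of 33 collagens, so leaving it out by itself moves such genes towards lower values in SLR14. The counts without it are therefore no independent support for a fall. Without PBS 5, edgeR called 4 of 33 collagens lower in SLR14, where 0.439% of all genes were called lower. These were Col6a3 at -0.73 (adjusted p = 0.0256), Col6a2 at -1.06 (adjusted p = 0.0272), Col4a1 at -0.50 (adjusted p = 0.0345) and Col6a1 at -0.69 (edgeR adjusted p = 0.0430). Without both PBS 5 and SLR14 2, 2 of 33 were called lower, against 0.458% of all genes, namely Col6a3 at -0.66 (edgeR adjusted p = 0.0317) and Col6a2 at -1.005 (adjusted p = 0.0452). Groups that did not overlap once PBS 5 was left out were found for 5 collagens, the 4 above and Col5a3, all lower in SLR14, against 2.08% of all genes. PBS 5 had 30.8% of the median of the other PBS tumours for Col6a3 and 37.9% for Col4a1.

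The other type VI chains were scarce. Col6a5 was at 0.984, 0.417, 0.102, 0.357 and 0.426 CPM in SLR14 1 to 5, against 1.11, 0.857, 1.24, 2.27 and 0.503 CPM in PBS 1 to 5, with a log2 fold change of -1.43 ± 0.50 (SE, edgeR unadjusted p = 0.0136, adjusted p = 0.305). Col6a6 had a log2 fold change of -0.15 and Col6a4 one of 0.51, both with intervals that crossed 0.

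FACITs bind the surface of fibrils. The 5 tested had a median log2 fold change of 0.07, 2 were negative and 0 were called. Col12a1 was at 416, 435, 451, 451 and 493 CPM in SLR14 1 to 5, against 480.4, 421, 485, 486 and 269 CPM in PBS 1 to 5, and Col16a1 at 214, 222, 224, 219.8 and 209.5 CPM in SLR14 1 to 5, against 203, 195, 177, 219 and 107 CPM in PBS 1 to 5. For both genes PBS 5 was the lowest of the 10 tumours. The log2 fold changes were 0.07 ± 0.15 and 0.27 ± 0.15 (SE, edgeR adjusted p = 0.869 and 0.548), and the coefficient of variation of Col16a1 was 2.66% in SLR14 tumours and 24.2% in PBS tumours.

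Col14a1, a FACIT of skin and tendon that is typical of some fibroblasts, followed another pattern. It was at 8.49, 3.10, 7.06, 6.27 and 9.99 CPM in SLR14 1 to 5, against 10.1, 8.09, 20.9, 14.5 and 12.2 CPM in PBS 1 to 5. Its unadjusted p was the smallest of all collagens, with a log2 fold change of -0.90 ± 0.29 (SE, edgeR unadjusted p = 0.00813, adjusted p = 0.241). PBS 5 was not low here, and only PBS 2 lay within the SLR14 range. Col9a3 and Col20a1 stayed below 2 CPM in every tumour, with log2 fold changes of 0.39 and -0.05.

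Type VIII forms hexagonal lattices in vessel walls and in the cornea. Col8a1 was at 8.57, 1.37, 9.01, 12.9 and 13.8 CPM in SLR14 1 to 5, against 9.41, 7.04, 35.3, 11.8 and 12.5 CPM in PBS 1 to 5. Col8a2 was at 2.38, 0.893, 1.24, 2.40 and 1.95 CPM in SLR14 1 to 5, against 0.801, 2.06, 3.69, 2.63 and 2.05 CPM in PBS 1 to 5. SLR14 2 held the lowest Col8a1 value and PBS 3 the highest value of both genes. The log2 fold changes were -0.72 ± 0.49 for Col8a1 and -0.34 ± 0.36 for Col8a2 (SE, edgeR adjusted p = 0.612 and 0.733), and Col8a1 was at -0.46 without SLR14 2.

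Among transmembrane collagens, Col13a1, a chain of cell adhesion sites and the neuromuscular junction, was the single collagen with a positive fold change at an unadjusted p under 0.05. It was at 5.74, 3.51, 5.99, 6.62 and 7.49 CPM in SLR14 1 to 5, against 3.21, 3.52, 6.07, 3.50 and 4.34 CPM in PBS 1 to 5, with a log2 fold change of 0.52 ± 0.22 (SE, edgeR unadjusted p = 0.0357, adjusted p = 0.430). SLR14 2 lay among the PBS tumours and PBS 3 among the SLR14 tumours. Col23a1 was below 1 CPM in all SLR14 tumours, against 0.310 to 3.14 CPM in PBS tumours, with a log2 fold change of -1.04 and an interval of -2.25 to 0.18, and the value was -0.16 without PBS 4.

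Col17a1, the collagen of hemidesmosomes in basal keratinocytes, did not have enough counts in enough tumours to be tested in the filtered edgeR fit. It had 553 counts (14.7 CPM) in SLR14 5 and 166 counts (4.97 CPM) in PBS 4, and 0 to 5 counts in each of the other tumours. The same tumours held keratinocyte transcripts. The summed CPM of the 4 keratinocyte markers in the table (Krt14, Krt10, Trp63 and Sfn) was 102 in SLR14 5 and 0.833 to 1.32 in the other SLR14 tumours, against 51.4 in PBS 4 and 0.952 to 1.70 in the other PBS tumours. Krt14 was at 62.3 CPM in SLR14 5 and 17.6 CPM in PBS 4, and was at 0 in 3 SLR14 tumours and 1 PBS tumour. The part of skin cells in the Col17a1 values was not tested.

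**Figure D4:**
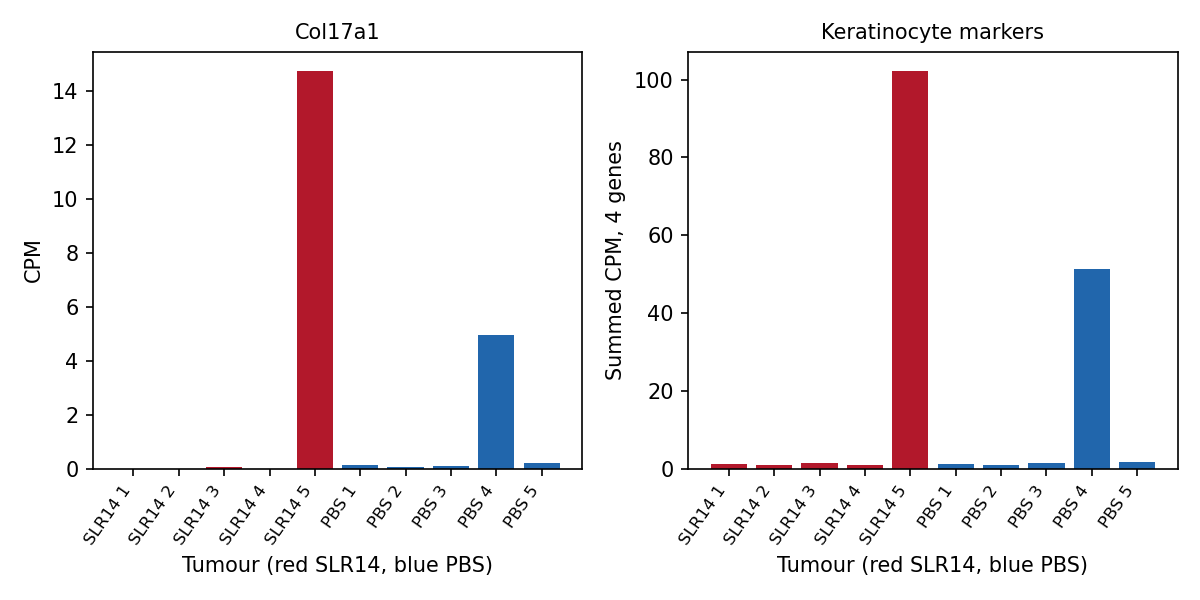
Col17a1 in CPM (left) and the summed CPM of 4 keratinocyte markers (right) in each tumour (SLR14 red, PBS blue). Both are high in SLR14 5 and PBS 4 and near 0 in the other 8 tumours.

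The other genes without a test in the filtered edgeR fit were Col25a1, a transmembrane collagen of neurons and muscle, and Col26a1. DESeq2 tested both and called neither, with log2 fold changes of -2.98 for Col25a1 (adjusted p = 0.108) and -3.67 for Col26a1 (adjusted p = 0.082). Unfiltered edgeR gave -2.86 and -3.35 (adjusted p = 0.194 and 0.239). These values rest on few counts. Col25a1 had 0 to 3 counts in SLR14 tumours, against 3 to 14 in PBS tumours, and Col26a1 had 0 to 4 counts in SLR14 tumours, against 0 to 21 in PBS tumours. Col7a1, which builds the anchoring fibrils under epithelium, was at 26.5, 6.61, 15.5, 15.4 and 15.8 CPM in SLR14 1 to 5, against 14.8, 8.44, 11.9, 38.5 and 3.87 CPM in PBS 1 to 5. Its log2 fold change was 0.04 ± 0.48 (SE, edgeR adjusted p = 0.977), and the sign turned when PBS 5 was left out (-0.20).

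Chains that assemble into the same molecule were compared as ratios of CPM per kb, a measure in which library size cancels. The ratio of Col4a1 to Col4a2 was 1.62, 1.65, 1.55, 1.58 and 1.50 in SLR14 1 to 5, against 1.84, 1.93, 1.94, 1.76 and 2.15 in PBS 1 to 5. The groups did not overlap, with means of 1.58 ± 0.0573 in SLR14 tumours and 1.93 ± 0.146 in PBS tumours (SD, n = 5 each). A two-sided exact permutation test on the log2 ratio gave p = 0.00794, the smallest p that 252 assignments allow, and 0.0476 after Benjamini-Hochberg adjustment over 6 ratios. This test was added after the ratios had been seen, when the lack of overlap had already fixed its p at that smallest value. Leaving out a tumour cannot make such groups overlap. The exact permutation p without PBS 5 was thus bound to be the smallest possible with 126 assignments, 0.0159, which the adjustment takes to 0.0952. It is no further support for a difference.

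The ratio of Col1a1 to Col1a2 was 1.76 ± 0.275 in SLR14 tumours and 1.33 ± 0.315 in PBS tumours (SD, n = 5 each, exact permutation p = 0.0397, adjusted over the 6 ratios 0.119). Its groups overlapped, and its extremes were SLR14 2 at 2.20 and PBS 5 at 0.815. The other 4 ratios had overlapping groups as well. Col5a1 to Col5a2 was 5.21 ± 1.53 in SLR14 tumours and 3.73 ± 1.23 in PBS tumours, and Col6a1 to Col6a2 was 2.55 ± 0.342 in SLR14 tumours and 2.01 ± 0.596 in PBS tumours (SD, n = 5 each, adjusted exact permutation p = 0.167 for both). Col6a3 to Col6a1 was 0.553 ± 0.103 in SLR14 tumours and 0.568 ± 0.117 in PBS tumours, and Col8a1 to Col8a2 was 4.22 ± 2.06 in SLR14 tumours and 5.99 ± 2.96 in PBS tumours (SD, n = 5 each, adjusted exact permutation p = 0.857 and 0.391).

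**Figure D5:**
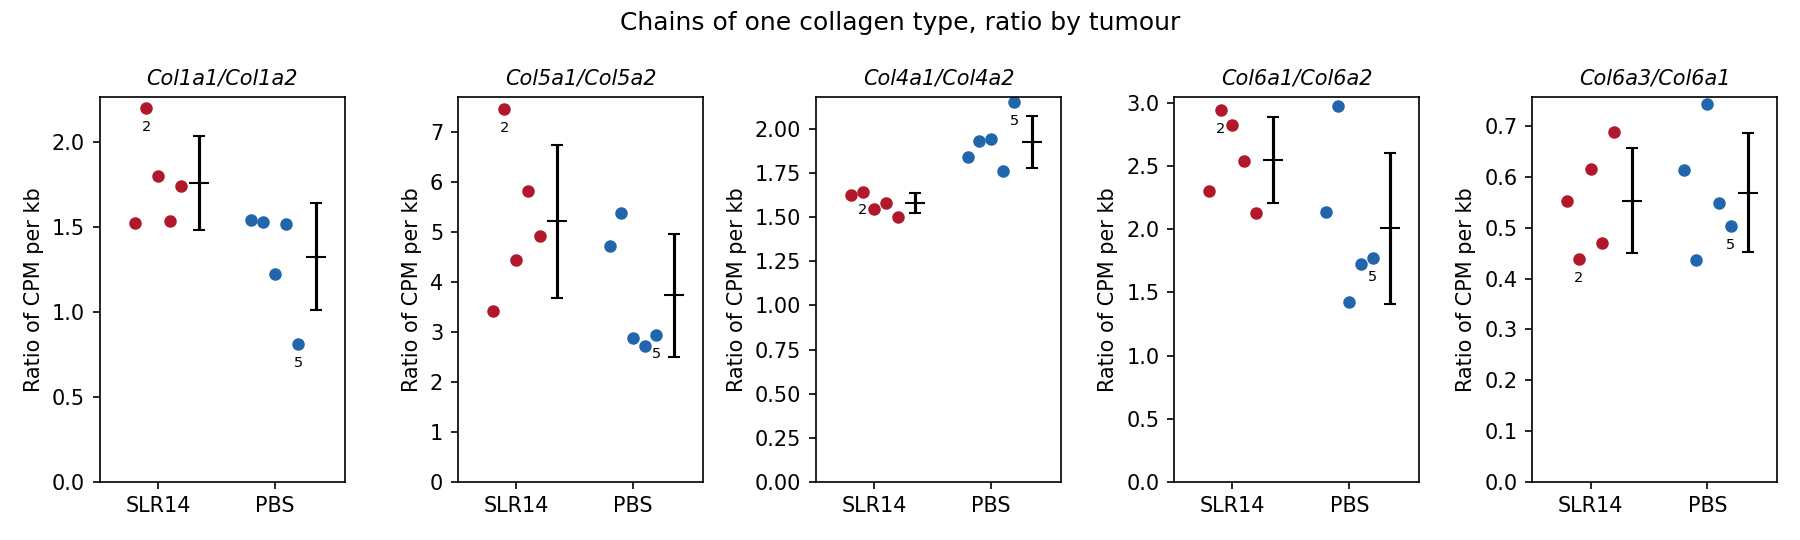
Ratios of CPM per kb of chains that share a molecule, in each tumour (dots, SLR14 left of PBS, with mean and SD; SLR14 2 and PBS 5 are numbered). For Col4a1/Col4a2 every SLR14 tumour (1.50 to 1.65) lies below every PBS tumour (1.76 to 2.15); in the other panels the groups overlap.

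The low tumours differed in which collagens were low. In SLR14 2, Col1a1 was at 37.2%, Col1a2 at 27.6%, Col3a1 at 28.1%, Col14a1 at 39.8% and Col8a1 at 12.5% of the median of the other SLR14 tumours. In the same tumour Col4a1 was at 99.5%, Col5a1 at 96.3%, Col12a1 at 96.5%, Col6a1 at 99.3% and Col18a1 at 114% of that median. Col5a2 at 60.6%, Col6a3 at 76.0% and Col6a2 at 76.8% lay between these sets. The sparse type IV chains Col4a3 and Col4a5 were at 80.1% and 30.3%. PBS 5 was at 27.5% for Col1a1, 35.5% for Col5a1, 34.1% for Col4a2, 34.4% for Col6a1 and 58.3% for Col18a1 of the median of the other PBS tumours. It was not low in Col14a1 (98.6%) or Col8a1 (118%).

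Other transcripts moved with these tumours. SLR14 2 had a summed skeletal muscle marker level of 1.91 CPM over 10 markers, with Acta1 at 0, against 93.6 to 218 CPM in the other SLR14 tumours. It was also the lowest of all 10 tumours for the fibroblast genes Dcn (0.536 CPM), Lum (0.357 CPM) and Pdgfra (0.833 CPM). The summed level of the 10 fibroblast markers was 641 CPM in SLR14 2, within the 526 to 665 CPM of the other SLR14 tumours. That sum was set by other, more abundant members of the list and does not show the level of Dcn, Lum or Pdgfra. PBS 5 had an erythroid marker sum of 173 CPM over 6 markers, against 54.3 to 63.9 CPM in the other PBS tumours, and a basement membrane partner sum of 1022 CPM, against 1986 to 2269 CPM. The same fibroblast genes were not low in PBS 5. Dcn was at 8.98 CPM there, the highest of all 10 tumours. Lum was at 4.49 CPM and Pdgfra at 3.83 CPM, against 1.75 to 9.61 CPM and 1.90 to 9.25 CPM in the other PBS tumours. The part of these differences in the collagen values was not tested.

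The machinery that makes, binds and breaks down collagen was read from the same fit, in which 0.674% of all genes were called higher and 0.290% lower in SLR14. In that edgeR fit 10.8% of all genes had an unadjusted p under 0.05, and DESeq2 called 2.19% of all genes. Of 20 biosynthesis genes 0 were called, 3 had an unadjusted p under 0.05 and the median log2 fold change was -0.07. Serpinh1, the collagen chaperone HSP47, averaged 605 ± 22.9 CPM in SLR14 tumours and 662 ± 143 CPM in PBS tumours (SD, n = 5 each), with a log2 fold change of -0.13. P4ha1, a subunit of prolyl 4-hydroxylase, had a log2 fold change of 0.15, and the lysyl hydroxylases Plod2 and Plod3 had -0.60 and 0.32. The smallest p of the list belonged to P3h4, a partner of the collagen-modifying complex, at -1.27 ± 0.36 (SE, edgeR adjusted p = 0.159), which DESeq2 called with an adjusted p of 0.0347.

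Of 12 genes of extracellular processing and crosslinking 0 were called, 4 had an unadjusted p under 0.05 and the median was -0.02. The crosslinking oxidases Lox and Loxl4 had log2 fold changes of 0.35 ± 0.16 and 0.33 ± 0.11, and the collagen-binding protein Sparc one of -0.27 ± 0.12 (SE, edgeR adjusted p = 0.444, 0.270 and 0.442). PBS 5, low in most collagens, was at 822 CPM for Serpinh1 and 988 CPM for Sparc, above the PBS means. Its biosynthesis sum of 4634 CPM exceeded the 3530 to 3975 CPM of the other PBS tumours.

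Among 10 collagen receptors 0 were called, 4 had an unadjusted p under 0.05 and the median was -0.21. Adgrg1, an adhesion receptor that binds type III collagen, averaged 120.1 ± 17.4 CPM in SLR14 tumours and 79.8 ± 14.7 CPM in PBS tumours (SD, n = 5 each). Its log2 fold change was 0.59 ± 0.14 (SE, edgeR adjusted p = 0.0788), with an adjusted p of 0.0421 without PBS 5 and of 0.0109 in DESeq2. Mrc2, the endocytic receptor that takes up collagen fragments, had a log2 fold change of -0.998 ± 0.37, and the integrin chain Itga10 one of -0.81 ± 0.29 (SE, edgeR adjusted p = 0.334 and 0.317). Itga1, the chain of a type IV collagen receptor, was chosen after its values were seen because it was called without PBS 5, at -0.52 (edgeR adjusted p = 0.0392).

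Fibril-associated proteoglycans and glycoproteins had the lowest median of these lists, -0.69 over 12 genes, 10 of them negative, against 52.0% of all genes. The summed level of the list was 764 ± 99.5 CPM in SLR14 tumours and 777 ± 228 CPM in PBS tumours (SD, n = 5 each). The low median thus does not describe the total level of the list. None was called by edgeR, and 8 of the 12 had an unadjusted p under 0.05, against 10.8% of all genes. Fmod, which regulates fibril assembly, was at -0.98 ± 0.26, and Ogn at -0.93 ± 0.26 (SE, edgeR adjusted p = 0.129 and 0.150). Both were scarce. Fmod averaged 1.7 ± 0.46 CPM in SLR14 tumours and 3.3 ± 1.1 CPM in PBS tumours, and Ogn 0.62 ± 0.13 and 1.2 ± 0.28 CPM (SD, n = 5 each). DESeq2 called 2 of the list lower, Fmod with an adjusted p of 0.0198 and Aspn with one of 0.0369.

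Of 15 laminins and other basement membrane partners 0 were called, 3 had an unadjusted p under 0.05 and the median was 0.11. Lama2, the laminin chain of muscle and nerve basement membranes, had a log2 fold change of -0.80 ± 0.26 (SE, edgeR adjusted p = 0.253). Without PBS 5, Lama2 was called at -0.97 (edgeR adjusted p = 0.0422). In the degradation list 1 of 9 genes was called. Mmp8, the neutrophil collagenase, was at 2.49 ± 1.39 CPM in SLR14 tumours and 0.444 ± 0.147 CPM in PBS tumours (SD, n = 5 each), with a log2 fold change of 2.46 ± 0.42 (SE, edgeR adjusted p = 0.0138). The neutrophil gene S100a8 was also higher, at 2.11 ± 0.36 (SE, edgeR adjusted p = 0.0127), and the part of neutrophil number in the Mmp8 value was not tested. Mmp9 had a log2 fold change of 0.80 ± 0.37 and Mmp14, a membrane-bound collagenase, one of -0.12 ± 0.17 (SE, edgeR adjusted p = 0.464 and 0.801). Across these lists DESeq2 called Mmp8 and the 4 genes named above, and limma voom called 0. The call of Mmp8 was lost with limma voom (adjusted p = 0.0576) and, in edgeR, without PBS 3 (adjusted p = 0.0502), and that of S100a8 with limma voom (adjusted p = 0.0521).

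Markers of cells known to make collagen were set beside these values. Of 10 fibroblast markers edgeR called 0 higher and 2 lower, against 0.674% and 0.290% of all genes. Negative fold changes were found for 8 of the 10, against 52.0% of all genes, with a median log2 fold change of -0.69. An unadjusted p under 0.05 in edgeR was found for 6 of the 10, against 10.8% of all genes. Fap, a protease of activated fibroblasts, averaged 0.863 ± 0.317 CPM in SLR14 tumours and 2.89 ± 0.736 CPM in PBS tumours (SD, n = 5 each), with a log2 fold change of -1.74 (edgeR adjusted p = 0.0126). Dpp4 averaged 0.221 ± 0.133 CPM in SLR14 tumours and 1.14 ± 0.473 CPM in PBS tumours (SD, n = 5 each), with a log2 fold change of -2.32 (edgeR adjusted p = 0.0235). The groups did not overlap for either gene. The adjusted p of Dpp4 was 0.0589 without PBS 1, 0.0714 without SLR14 1 and 0.0636 without SLR14 3, and 0.0514 without both PBS 5 and SLR14 2. The summed level of the list was 526 to 665 CPM in SLR14 tumours, against 493 to 639 CPM in PBS tumours. Pdgfra, Dcn and Lum reached at most 9.25, 8.98 and 9.61 CPM in any tumour. The sum was thus set by other, more abundant members and says little about these genes, Fap or Dpp4.

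Of 10 pericyte and smooth muscle markers edgeR called 0 higher and 1 lower, against 0.674% and 0.290% of all genes. Their median log2 fold change was -0.31, with 7 of the 10 negative, against 52.0% of all genes. An unadjusted p under 0.05 in edgeR was found for 4, against 10.8% of all genes. Rgs5, a pericyte gene, averaged 41.5 ± 8.24 CPM in SLR14 tumours and 80.6 ± 6.20 CPM in PBS tumours (SD, n = 5 each), with a log2 fold change of -0.96 (edgeR adjusted p = 0.00315). The sum of the list was 230.4 to 276 CPM in SLR14 tumours, against 244 to 410.3 CPM in PBS tumours. None of the 10 endothelial and none of the 10 skeletal muscle markers was called by edgeR, and in both lists 0 had an unadjusted p under 0.05. Their sums were 195 to 253 CPM and 1.91 to 218 CPM in SLR14 tumours, against 162 to 286 CPM and 35.1 to 218 CPM in PBS tumours. How far the fibroblast and pericyte markers move with the collagens was not tested.

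Of the remaining lists, edgeR called S100a8 among 9 leukocyte markers and, among 8 kidney epithelial markers, Lcn2 higher (adjusted p = 0.00106) and Epcam lower (log2 fold change -2.42, adjusted p = 0.0324). Over all genes edgeR called 0.674% higher and 0.290% lower. The call of Epcam was lost without any 1 of PBS 1, PBS 3, PBS 4 and SLR14 1 to 4, with adjusted p of 0.0547 to 0.0936. Of the keratinocyte (1), adipocyte (2), Schwann cell (4), cartilage or bone (2) and erythroid (6) markers tested, edgeR called 0. At an unadjusted p under 0.05 in edgeR these last 5 lists held 0, 0, 2, 0 and 2 genes, against 10.8% of all genes.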

How the data were processed

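Messenger RNA was sequenced from 10 tumours, 5 per group, after ribosomal RNA depletion and oligo(dT) enrichment, per the labels' protocols. The authors deposited raw counts per gene, made with Trim Galore 0.6.7 and STAR on mm39, per the submitters' processing notes, which also name DESeq2 1.36.0. The sources used here do not name the read counter, the use of strand or the annotation, so reads of overlapping or antisense genes therefore cannot be told apart. A deposited table of normalized values was not used. Groups and replicate numbers come from the sample titles, and tumours come from separate mice by the design text.

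The counts, 18603 genes and 17931895 to 39842608 per tumour, were filtered with filterByExpr (minimum count 10, 15883 genes kept), scaled by TMM and tested with the edgeR 4.0.16 quasi-likelihood test (limma 3.58.1, R 4.3.3), with Benjamini-Hochberg adjustment over all genes tested at 0.05. DESeq2 1.42.0 and limma voom were alternatives. The procedure was tested on simulated data. Rows without a symbol, 74 in all, held 0.0295% of counts and were kept because each has a gene identifier. Chi-square per degree of freedom between tumours of a group was 7.66 to 134 over 20 pairs, so no library was a duplicate.

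Transcript lengths came from GENCODE M21 on GRCm38, where 17808 identifiers matched, and serve only as a scale. Standard errors are the log2 fold change over the square root of F. Values in each tumour are given for the 2 members highest by length-scaled count and the member with the smallest p in each class, with Col1a1, Col1a2, Col3a1, Col4a1, Col4a2, Col5a3, Col6a3, Col15a1 and Col18a1 fixed besides. Col5a1 and Col6a5 were added after their values were seen, as were Itga1 and Aspn and the single markers set beside the low tumours. From each other list, the called members and the 2 smallest p are named (1 such gene is not reported here), with Serpinh1, P4ha1, Lox, Plod2, Mrc2 and Mmp14 fixed. Members and lists were chosen with earlier results of these data known.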

Additional observations from a re-analysis of the deposited data

Results flagged for a closer look

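Within-group outliers were looked for by Dixon's test at the 95% level in 104 groups of 5 tumours, which are 36 collagen genes, 8 class sums, the sum of all collagens, the fibrillar to type IV ratio and 6 chain ratios in both treatment groups. Chance flags about 5% of such groups, and 21 were flagged, 6 of them PBS 5 and 3 SLR14 2.

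PBS 5 was low for Col18a1 (595 CPM, others 997 to 1073), for Col5a1 (141 CPM, others 368 to 437), for the type IV sum (469.6 CPM, others 1137 to 1372), for the multiplexin sum (625 CPM, others 1059 to 1141) and for the FACIT sum (389 CPM, others 626 to 719.9). It was high for Col4a5 at 2.13 CPM, where the other PBS tumours had 0.127 to 0.490 CPM. SLR14 2 was high for Col18a1 at 1142 CPM and for the multiplexin sum at 1189 CPM, and low for Col27a1 at 1.07 CPM.

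Col17a1 stood out in SLR14 5 at 14.7 CPM and in PBS 4 at 4.97 CPM. SLR14 5 was also the highest of its group for Col15a1 (85.8 CPM) and for the transmembrane sum (22.9 CPM, of which Col17a1 is the larger part). SLR14 4 was high for Col4a4 (136 CPM), Col9a3 (0.866 CPM) and Col25a1 (0.153 CPM), and SLR14 3 for Col26a1 (0.102 CPM), the last 3 of them on few counts. PBS 3 was high for Col11a1 (14.8 CPM), Col8a1 (35.3 CPM) and the type VIII sum (39.0 CPM), and PBS 4 for Col23a1 (3.14 CPM).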

How the results depend on the processing

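With all 10 tumours, no scaling, filter or test changed the count of 0 collagens called; upper-quartile scaling moved the median of all genes to -0.05. Leaving out 1 tumour gave 0 to 4 collagens called, the 4 without PBS 5, and leaving out PBS 5 and SLR14 2 gave 2. Over all genes, where 153 were called (107 higher, 46 lower), DESeq2 called 407 (251 higher, 156 lower), 74 were lower without PBS 5 and SLR14 2, and leaving out 1 tumour gave 69 to 194 (44 to 123 higher, 25 to 71 lower). The replicate numbers do not pair the tumours (correlations of same-numbered deviations -0.25 to 0.14, 1 of 10 tumours closest to its own number); with the replicate block 78 genes were called (51 higher, 27 lower) and 0 collagens, and Mmp8, Fap and S100a8 were not (edgeR adjusted p = 0.0686, 0.0742 and 0.0537). DESeq2 called 1 biosynthesis gene lower, 1 receptor higher and 2 fibril-associated genes lower. Leaving out 1 tumour gave 0 to 1 receptors higher, 0 to 1 receptors lower, 0 to 1 basement membrane partners lower (1 also without PBS 5 and SLR14 2) and 0 to 1 degradation genes higher; the last was 0 with the 1 CPM filter, which drops Mmp8, with limma voom and with the block.

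The transmembrane median was 0.51 with the 1 CPM filter, which leaves fewer genes, -1.04 in DESeq2, which tests more, and -0.39 to 0.15 with 1 tumour left out. The median of Col7a1 and Col26a1 was -1.65 without a filter and -1.81 in DESeq2, where Col26a1 enters. Some uncalled fold changes turned sign, and the cause was not tested. Without PBS 5 and SLR14 2, Col12a1 was at -0.056, Col18a1 at -0.039 and Col7a1 at -0.018. Col4a2 was at 0.062 in limma voom and 0.030 with the block, and Myh4 at -0.68 in limma voom. With 1 tumour left out, log2 fold changes ranged from -0.066 to 0.12 for Col12a1, -0.40 to 0.027 for Col15a1, -0.26 to 0.090 for Col4a2, -0.53 to 0.046 for Col5a3, -0.22 to 0.72 for Col7a1, -0.070 to 0.57 for Bglap, -0.21 to 0.75 for Matn3, -0.24 to 0.071 for Mmp14, -1.25 to 0.58 for Myh2 and -0.31 to 1.03 for Sfn. Collagens under 1 CPM rest on few counts, which limits their precision.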
